A study of Mus musculus with 4 samples.

Results

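The nuclear genes of the oxidative phosphorylation system were described in embryonic stem cells (ESCs) of telomerase-deficient and wild-type mice. Members were the genes whose symbols begin with Ndufa, Ndufb, Ndufc, Ndufs, Ndufv, Uqcr, Cox4, Cox5, Cox6, Cox7, Cox8 or Atp5, together with Sdha, Sdhb, Sdhc and Sdhd, provided that the mean raw count over the 4 libraries was at least 10. Of 24116 genes in the count table, 94 carried such a symbol and 89 reached the count. They comprised 36 subunits of complex I, 8 assembly factors of complex I (Ndufaf1 to Ndufaf8) that the symbol rule also takes in, 4 subunits of complex II, 8 of complex III, 16 of complex IV and 17 of complex V. Ndufa4 and its relative Ndufa4l2 were placed in complex IV, where the NDUFA4 protein is now known to reside. On chromosome 6 lay 4 members, namely Ndufa4, Ndufa5, Ndufb2 and Ndufa9, and 85 lay elsewhere. The 5 genes under the count were Cox6a2, Cox7b2, Cox8b, Cox8c and Ndufs5-ps, of which the nearest to the threshold, Ndufs5-ps, had a mean of 6.75 counts. The member nearest to the threshold from above, Cox4i2, had a mean of 13.25 counts.

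Oxidative phosphorylation takes place in the inner mitochondrial membrane. Complexes I and II pass electrons from NADH and succinate to coenzyme Q, complex III passes them on to cytochrome c, complex IV reduces oxygen, and complex V makes ATP from the proton gradient that complexes I, III and IV build up. Most subunits are encoded in the nucleus and must be matched by a small set of subunits encoded in mitochondrial DNA.

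The G3 Terc-/- ESCs (line F35, C57BL/6 strain, labelled as Terc knockout and as generation G3, Terc being the RNA template of telomerase) were compared with wild-type ESCs (WT, line N12, C57BL/6) in 2 RNA-seq libraries of each genotype, which the study describes as biological replicates. The titles of the WT libraries also carry the label G3, so that label does not set the genotypes apart. Both lines were kept on feeder cells in medium with serum and leukemia inhibitory factor, and poly(A) RNA was sequenced. Each genotype was 1 line, so genotype and line cannot be told apart, and the p-values measure only the spread between these libraries. In bulk RNA, fewer cells of a kind and less RNA per cell cannot be told apart either.

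Libraries held between 18047995 and 22520017 counts. As a check of the labels, Terc was counted 7 times and 2 times in WT and not at all in either library of G3 Terc-/- ESCs (0 counts, which allows up to 3). The 2 counts of WT replicate 2 lie within that bound, so the check is weak and cannot tell that library from the knockout libraries. All 12 pluripotency markers examined were measured. By the rule for calls given below 9 were higher and 3 lower, where 21.7% and 21.8% of all genes tested were. The summed level of these markers lay at 6981 and 7086 CPM (counts scaled by the normalised library size) in WT and 8187 and 8474 CPM in G3 Terc-/- ESCs. Of 16 markers of feeder fibroblasts, 15 passed the filter on low counts, with none at 0 in all libraries. Of these 15, 7 were higher and 1 lower, against the same shares of all genes tested. Their sum was 934 and 739.9 CPM in the WT libraries and 1097 and 923 CPM in the G3 Terc-/- libraries, with ranges that overlapped and with replicate 1 above replicate 2 in each genotype. The part of feeder RNA in the values of the members was not tested.

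The system as a whole moved little. Nuclear oxidative phosphorylation transcripts made up 1.07% and 1.04% of all counts in WT replicates 1 and 2, and 1.11% in each replicate of G3 Terc-/- ESCs. Their summed level was 10789 and 10595 CPM in WT and 10976 and 10962 CPM in G3 Terc-/- ESCs, a ratio of 1.03. Fold changes were fitted with edgeR's quasi-likelihood test over the 14896 genes that passed a filter on low counts, all 89 members among them, and a gene was called where its Benjamini-Hochberg adjusted p was under 0.05. By that rule 22 members (24.7%) were higher in G3 Terc-/- ESCs, against 21.7% of all genes tested, and 7 members (7.87%) were lower, against 21.8% of all genes tested. The other 60 members were not called. The median log2 fold change was 0.07 over the members and 0.01 over all genes tested.

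The split was similar for well-counted genes (500 counts or more on average): 21 of 73 members (28.8%) were higher, where 22.2% of such genes were, and 5 (6.85%) were lower, where 28.5% of such genes were. The values of both libraries of G3 Terc-/- ESCs lay above both WT libraries for 39 members (43.8%, against 35.5% of all genes tested) and below them for 13 members (14.6%, against 34.9%). The sizes were small. The log2 fold change of 74 members lay within 0.25 of 0, and only 3, Ndufa4, Ndufa5 and Cox6b2, lay beyond 0.5. At the cutoffs the study used for genes, a fold change of 2 with an unadjusted p under 0.05, no member was called, whereas 4.73% of the genes tested rose and 3.13% fell. An unadjusted p under 0.05 alone was reached by 36 members in edgeR's test. The edgeR test called 29 members at an adjusted p under 0.05 without a fold cutoff, and DESeq2 called 15 of the same 29. Over all genes tested, edgeR called 43.5% and DESeq2 29.3%.

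Which members were called depended on the libraries in the comparison. In each of 11 other fits (other scalings, filters and tests, or 1 library left out) 10 members kept their call, 7 higher and 3 lower, and the other 19 lost it in at least 1 fit. The 7 were Ndufa8, Ndufa9, Ndufb3, Ndufb7, Ndufc1, Cox5a and Cox6b2, and the 3 were Ndufa4, Ndufa5 and Ndufb2. Without WT replicate 2 there were 11 members higher and 5 lower, without WT replicate 1 there were 13 and 5, and without G3 Terc-/- replicate 2 there were 20 and 11. Scaling by upper quartiles gave 27 higher and 4 lower, so that the share of higher calls rose from 75.9% to 87.1%. That scaling also moved the median log2 fold change of all genes tested, from 0.006 to 0.034. The share of all genes called varied between the fits too, from 29.3% with DESeq2 to 47.9% with a replicate block, against 43.5% in the main fit.

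**Figure D1:**
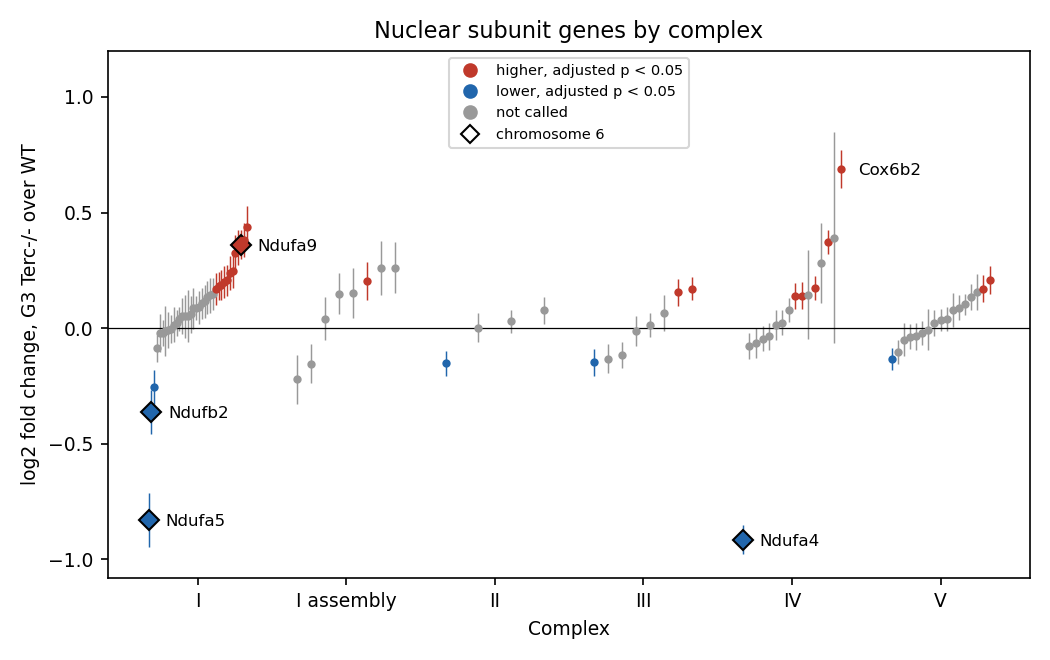
Log2 fold change (G3 Terc-/- over WT, vertical axis) of each of the 89 members, grouped by complex and sorted within it, with bars of 1 standard error from edgeR. Red points are the 22 members called higher, blue points the 7 called lower, grey points the rest, and diamonds mark the 4 members on chromosome 6, 3 of which lie lowest of all.

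The widest departures from 0, those of Ndufa4 and Ndufa5, were on chromosome 6. All 4 members there were called, 3 lower and 1 higher, whereas of the 691 chromosome 6 genes tested 34.0% rose and 31.1% fell. The median log2 fold change was -0.60 over these 4 members and 0.08 over the 85 members on other chromosomes, where 21 were higher, 4 were lower and the lowest log2 fold change was -0.25.

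Ndufa4 encodes a small subunit of complex IV that was long assigned to complex I. It measured 127 and 129.6 CPM in the WT libraries and 64.4 and 71.9 CPM in the G3 Terc-/- libraries, from 2769 and 2874 and 1428 and 1312 raw counts. Both G3 Terc-/- values were far below both WT values, and the spread within each pair was small beside the gap (log2 fold change -0.91, SE 0.06, adjusted p = 2.50e-16, edgeR). Ndufa4 lies at chr6:11900372-11907450 (GRCm38), and of the 8 other genes tested within 2.5 Mb of it, 7 were called lower, with a median of -0.90.

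Ndufa5, an accessory subunit of the arm of complex I that reaches into the matrix, was counted less. Its level was 19.2 and 17.3 CPM in WT and 9.20 and 11.5 CPM in G3 Terc-/- ESCs, from 419 and 383 and 204 and 209 counts. The groups were apart here too (log2 fold change -0.83, SE 0.12, adjusted p = 1.15e-07, edgeR). It lies at chr6:24518662-24527690, where 4 of 8 neighbours tested within 2.5 Mb were called lower and none higher, with a median of -0.72.

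Ndufb2, an accessory subunit of the membrane arm of complex I, lay where the direction of the surrounding genes changed. It measured 22.2 and 22.4 CPM in WT and 16.4 and 18.4 CPM in G3 Terc-/- ESCs, lower in both (log2 fold change -0.36, SE 0.09, adjusted p = 0.00183, edgeR). Of the 29 other genes tested within 2.5 Mb of its position at chr6:39592565-39599843, 14 were called higher and 2 lower, with a median of 0.26. In a split by side, which was not planned, the 23 before it had a median of 0.43 with 14 higher and none lower. The 6 after it had a median of -0.22 with none higher and 2 lower. With 5 Mb on each side, a width chosen after seeing the data, the median over both sides was 0.08, with 14 higher and 12 lower of 54, and that of the 17 genes after it was -0.47. The gene next to it, Braf, which encodes a kinase of the MAP kinase pathway, was one of the 2 that were lower. Braf had a log2 fold change of -0.36 (SE 0.06, adjusted p = 8.14e-06, edgeR). The annotated exons of Ndufb2 and Braf share 146 bases on opposite strands, and 145 bases of Ndufb2 are also annotated to Gm42420 on the same strand. Since the strand setting of the counting is not given in the sources used here, reads from the shared stretches cannot be assigned, and the value of Ndufb2 is uncertain to that extent.

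Ndufa9, an accessory subunit near the coenzyme Q site of complex I, rose. It stood at 70.8 and 68.2 CPM in the WT libraries and at 92.4 and 85.9 CPM in the G3 Terc-/- libraries. The groups did not overlap (log2 fold change 0.36, SE 0.06, adjusted p = 7.25e-06, edgeR). Around it, at chr6:126821863-126849144 towards the far end of the chromosome, 46 of 70 genes tested within 2.5 Mb were called higher and 1 lower, with a median of 0.50.

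Of these 4 members, 3 thus moved in the direction of the median of their neighbours within 2.5 Mb. Ndufb2 moved against the median over both sides. By the unplanned split it moved in the direction of the genes after it, which are few and include Braf, with which it shares exon bases. With 5 Mb on each side the medians around Ndufa4, Ndufa5 and Ndufa9 were -0.91, -0.29 and 0.52, and with 1 Mb, also chosen after seeing the data, they were -0.15 (2 genes only), -1.03 (3 genes) and 0.38 (6 genes). The number of copies of chromosome 6 in each line was not analysed here, and its part in these values was not tested.

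**Figure D2:**
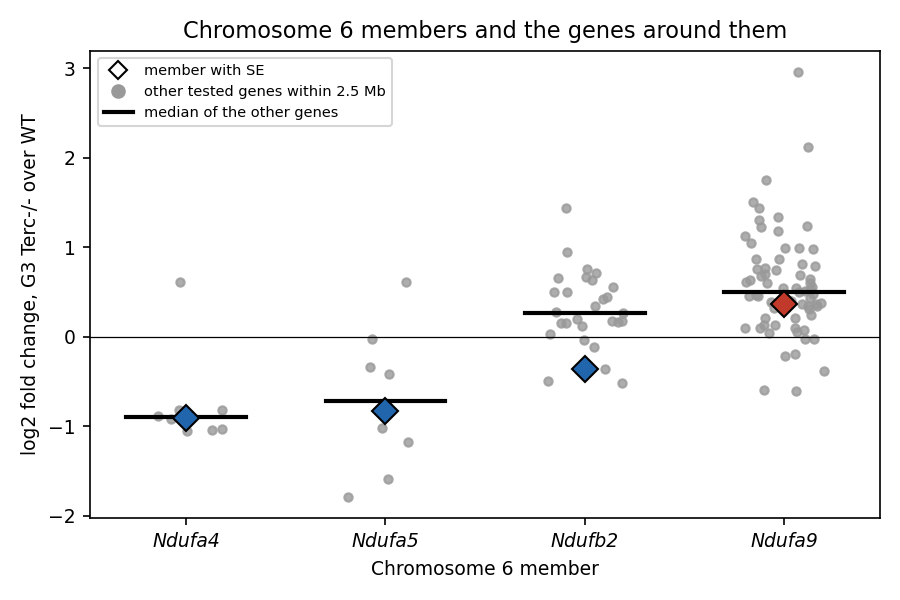
Log2 fold change (G3 Terc-/- over WT, vertical axis) of the 4 chromosome 6 members (diamonds, with standard error, red if called higher and blue if called lower) and of the other genes tested within 2.5 Mb of each (grey points), with black bars at the neighbours' medians. Ndufa4, Ndufa5 and Ndufa9 lie near their neighbours' medians of -0.90, -0.72 and 0.50, and Ndufb2 lies below a median of 0.26 taken over both of its sides.

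Complex I, the NADH dehydrogenase, is the largest of the groups. Of its 36 subunits 12 (33.3%) were higher and 3 (8.33%) lower, where 21.7% and 21.8% of all genes tested were, with a median log2 fold change of 0.09, and its summed level was 1949 and 1922 CPM in WT and 2055 and 2079 CPM in G3 Terc-/- ESCs, a ratio of 1.07. The 12 higher calls fell to 6 without WT replicate 1 and to 5 with DESeq2. Ndufv2, a core subunit of the catalytic part, was higher, at 104 and 104 CPM in WT and 111 and 125 CPM in G3 Terc-/- ESCs (adjusted p = 0.0108, edgeR), which was not called without either WT replicate, without G3 Terc-/- replicate 2 or by DESeq2. Symbols of the Ndufb series, which label membrane-arm subunits, held 5 of the 12 higher calls and 2 of the 3 lower calls among 10 members.

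Off chromosome 6, the widest rises in complex I were those of Ndufc1 and Ndufb7. Ndufc1, a small membrane-arm subunit, measured 18.7 and 19.4 CPM in WT and 24.2 and 27.7 CPM in G3 Terc-/- ESCs. Both G3 Terc-/- libraries were above both WT libraries, with replicate 2 the highest (log2 fold change 0.44, SE 0.09, adjusted p = 0.000123, edgeR). Ndufb7, which faces the intermembrane space, had 40.1 and 35.2 CPM in WT and 50.6 and 47.5 CPM in G3 Terc-/- ESCs. Its groups were also apart (log2 fold change 0.38, SE 0.07, adjusted p = 4.99e-05, edgeR). Ndufa8 and Ndufb3, the other accessory subunits whose calls held in all 11 other fits, rose by 0.35 and 0.33 on the log2 scale. Ndufb10, which lies in the membrane arm as well, was the subunit off chromosome 6 that was called lower. Ndufb10 stood at 45.7 and 47.4 CPM in WT and 40.4 and 37.7 CPM in G3 Terc-/- ESCs (log2 fold change -0.25, SE 0.07, adjusted p = 0.00385, edgeR), and without WT replicate 2 its adjusted p was 0.0720. Ndufa7 had the highest level per length in complex I and did not differ between the genotypes beyond the spread, at 85.8 and 81.8 CPM in WT and 84.8 and 82.3 CPM in G3 Terc-/- ESCs (adjusted p = 0.973, edgeR).

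The 8 Ndufaf genes encode factors that help to assemble complex I and are not part of it. Of these, 1 (12.5%) was higher and none was lower, where 21.7% and 21.8% of all genes tested were, and their median log2 fold change was 0.15. The call was that of Ndufaf4, at 29.9 and 30.8 CPM in WT and 32.0 and 38.1 CPM in G3 Terc-/- ESCs (log2 fold change 0.20, SE 0.08, adjusted p = 0.0405, edgeR). A single library stood out, G3 Terc-/- replicate 2, without which the call was lost. The call was also lost without WT replicate 1, without WT replicate 2, with DESeq2 and without the filter on low counts.

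Complex II, the succinate dehydrogenase, is built from nuclear-encoded subunits only and also serves the citric acid cycle. Its summed level overlapped between the genotypes, at 615 and 613 CPM in WT and 615 and 607 CPM in G3 Terc-/- ESCs. Sdha, the flavoprotein with the succinate site, measured 295 and 303 CPM in WT and 309 and 301 CPM in G3 Terc-/- ESCs, with overlapping groups (log2 fold change 0.03, adjusted p = 0.659, edgeR). Sdhb, the iron-sulfur subunit, had 73.9 and 70.2 CPM in WT and 74.3 and 69.9 CPM in G3 Terc-/- ESCs, which overlapped as well (log2 fold change 0.00, adjusted p = 0.980, edgeR). Sdhc, a membrane anchor, was at 100.3 and 94.8 CPM and 104 and 102 CPM respectively and was not called (adjusted p = 0.296, edgeR). Sdhd, the other anchor, was the only subunit called in complex II. It measured 146 and 145 CPM in WT and 128 and 134 CPM in G3 Terc-/- ESCs, lower in both (log2 fold change -0.15, SE 0.05, adjusted p = 0.0199, edgeR). The call of Sdhd did not hold with DESeq2 or upper-quartile scaling, nor without WT replicate 1, WT replicate 2 or G3 Terc-/- replicate 1.

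Complex III, the cytochrome bc1 complex, had members moving both ways. Of 8 subunits 2 were higher and 1 was lower, where 21.7% and 21.8% of all genes tested were. The higher calls were thus near the share over all genes tested. The median log2 fold change was -0.0005. The sum was 978 and 945 CPM in WT and 993 and 974 CPM in G3 Terc-/- ESCs. Uqcrc1, a core protein of the matrix side, had 292 and 285 CPM in WT and 334 and 315 CPM in G3 Terc-/- ESCs (log2 fold change 0.17, SE 0.05, adjusted p = 0.00476, edgeR). Without WT replicate 2 its adjusted p was 0.131. Uqcrb, which binds next to the coenzyme Q site, rose from 91.9 and 93.0 CPM to 102 and 104 CPM (log2 fold change 0.15, adjusted p = 0.0279, edgeR). The call of Uqcrb was lost with DESeq2, without the filter on low counts, without WT replicate 1 and without WT replicate 2. Uqcrq, the subunit with the highest level per length in this complex, went from 109 and 100.0 CPM to 95.5 and 93.2 CPM (log2 fold change -0.15, adjusted p = 0.0407, edgeR). In all 3 the genotypes did not overlap, but the gap of Uqcrq was smaller than the spread within WT. The call of Uqcrq was lost with DESeq2, with upper-quartile scaling and with a filter at 50 counts. It was also lost without WT replicate 1 and without G3 Terc-/- replicate 2.

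Complex IV, the cytochrome c oxidase, held both the widest rise and the widest fall among all members. Of its 16 members 5 (31.2%) were higher and 1 (6.25%), Ndufa4, was lower, where 21.7% and 21.8% of all genes tested were. Without Ndufa4 the summed level was 1675 and 1591 CPM in WT and 1751 and 1750 CPM in G3 Terc-/- ESCs, a ratio of 1.07, and with it the ratio was 1.03. The number of members higher fell to 2 without WT replicate 2 and to 3 with DESeq2 or without the filter on low counts. Cox6b2, which encodes the testis isoform of a subunit that faces the intermembrane space, rose most. It measured 23.8 and 21.3 CPM in WT and 36.6 and 36.1 CPM in G3 Terc-/- ESCs, from 520 and 473 and 811 and 659 counts. The G3 Terc-/- libraries agreed closely and lay above both WT libraries (log2 fold change 0.69, SE 0.08, adjusted p = 2.89e-09, edgeR).

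Cox5a, a subunit on the matrix side, followed with 159.8 and 162 CPM in WT and 209 and 207 CPM in G3 Terc-/- ESCs, with groups well apart (log2 fold change 0.37, SE 0.05, adjusted p = 9.71e-08, edgeR). Cox4i1, the widely expressed isoform of the subunit through which ATP regulates the enzyme, had 277 and 258 CPM in WT and 309.8 and 293 CPM in G3 Terc-/- ESCs (log2 fold change 0.17, adjusted p = 0.00526, edgeR). Cox6a1, the non-muscle isoform of its subunit, had 128 and 116 CPM in WT and 138 and 130.2 CPM in G3 Terc-/- ESCs (log2 fold change 0.14, adjusted p = 0.0438, edgeR). Both were higher in both G3 Terc-/- libraries, by gaps smaller than the spread between the WT libraries. Without WT replicate 2 the calls of Cox4i1 and Cox6a1 were lost. The call of Cox6a1 was also lost with DESeq2, without the filter on low counts and without G3 Terc-/- replicate 1. Cox5b, a zinc-binding subunit and the remaining member called, had a log2 fold change of 0.14 (adjusted p = 0.0411, edgeR). Its call was lost with DESeq2, without the filter on low counts, without WT replicate 2 and without G3 Terc-/- replicate 2.

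**Figure D3:**
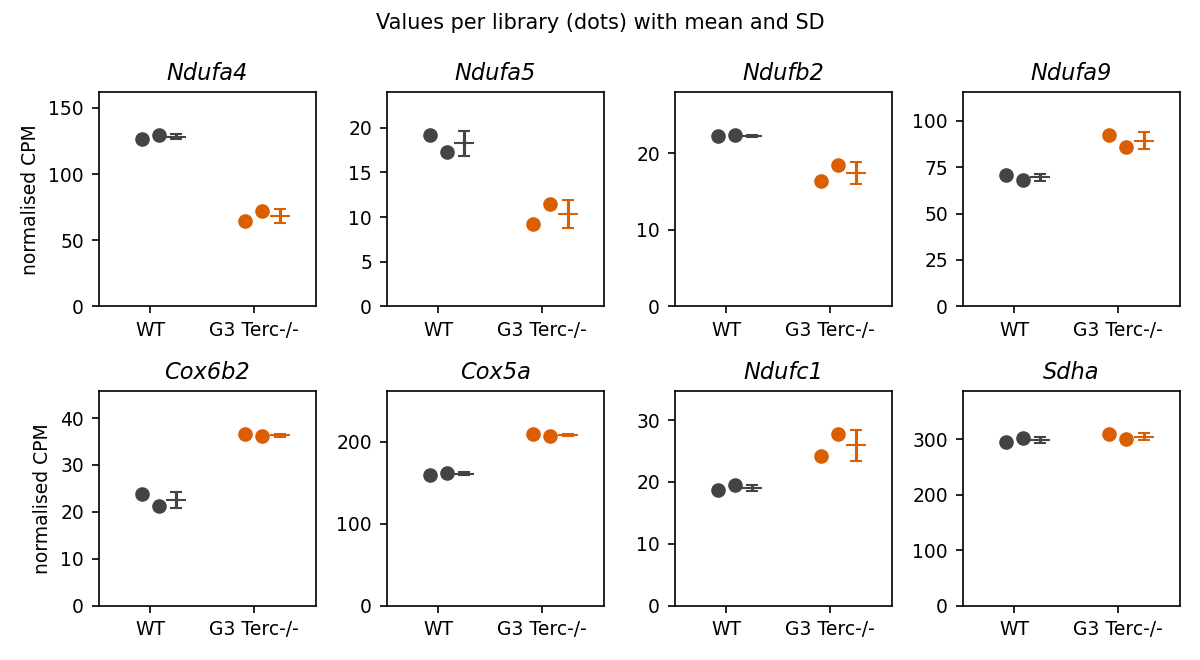
Normalised CPM (vertical axes, each from 0) of 8 members in each WT library (grey dots) and each G3 Terc-/- library (orange dots), with the mean and standard deviation of the 2 libraries beside them. The genotypes are apart for the 4 chromosome 6 members in the top row and for Cox6b2, Cox5a and Ndufc1, and overlap for Sdha.

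Complex V, the ATP synthase, carried the largest share of the transcripts, at 5285 and 5230 CPM in WT and 5336 and 5298 CPM in G3 Terc-/- ESCs, a ratio of 1.01. Of 17 members 2 (11.8%) were higher and 1 (5.88%) was lower, where 21.7% and 21.8% of all genes tested were. Every log2 fold change lay within 0.25 of 0. The number higher was 1 without either WT replicate and with DESeq2 and 5 without G3 Terc-/- replicate 1, and the number lower was 0 without either WT replicate and 2 without G3 Terc-/- replicate 2. In the catalytic F1 head (Atp5a1, Atp5b, Atp5c1, Atp5d and Atp5e) 1 of 5 (20.0%) was lower and none was higher. Of the other 12, which form the membrane part and the stalk, 2 (16.7%) were higher and none was lower.

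The major pair of F1 subunits had fold changes of opposite sign. Atp5a1, the alpha subunit, measured 1401 and 1389.8 CPM in WT and 1298 and 1247 CPM in G3 Terc-/- ESCs (log2 fold change -0.13, SE 0.05, adjusted p = 0.0178, edgeR). Atp5b, the catalytic beta subunit, had 1925 and 1894 CPM in WT and 2061 and 2044 CPM in G3 Terc-/- ESCs (log2 fold change 0.10, SE 0.05, adjusted p = 0.0619, edgeR), which did not pass the threshold. The libraries of the genotypes did not overlap for either gene. The call of Atp5a1 was lost with upper-quartile scaling, without WT replicate 1 and without WT replicate 2. Atp5b was called with upper-quartile scaling, with a filter at 50 counts and with a replicate block. It was also called without G3 Terc-/- replicate 1 and without G3 Terc-/- replicate 2.

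Atp5l, subunit g of the membrane part, rose from 78.6 and 74.0 CPM in WT to 86.7 and 89.7 CPM in G3 Terc-/- ESCs (log2 fold change 0.21, adjusted p = 0.00533, edgeR, and 0.156 without WT replicate 2). Atp5j, coupling factor 6 of the stalk, rose from 114 and 119 CPM to 125 and 138 CPM (log2 fold change 0.17, adjusted p = 0.0134, edgeR). For Atp5j the G3 Terc-/- replicates lay farther apart than replicate 1 lay from WT. The call of Atp5j was lost with DESeq2 and without WT replicate 1, WT replicate 2 or G3 Terc-/- replicate 2. The 3 genes that encode the identical mature subunit c of the rotor ring, Atp5g1, Atp5g2 and Atp5g3, had log2 fold changes of 0.02, -0.02 and 0.04, and none was called.

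Levels of different genes were compared as CPM per kilobase of transcript (RPKM), with the length taken from the principal transcripts of the GENCODE annotation. Over the members the highest was Atp5b, at 997 ± 11.7 RPKM (SD, n = 2) in WT and 1071 ± 6.32 RPKM (SD, n = 2) in G3 Terc-/- ESCs, followed by Atp5a1 at 565 ± 3.18 RPKM (SD, n = 2) in WT ESCs. The top members of the other complexes were Cox7c (388 ± 7.87 RPKM, SD, n = 2, in WT), Uqcrq (258 ± 15.8 RPKM), Ndufa7 (159 ± 5.42 RPKM) and Sdhd (118 ± 0.935 RPKM). Behind Cox7c came Cox8a (365 ± 22.7 RPKM) and Cox4i1 (359 ± 18.3 RPKM), which differed from each other by less than their spread. Ndufa4 ranked among the higher members of complex IV with 284 ± 4.41 RPKM (SD, n = 2) in WT, and in G3 Terc-/- ESCs it was at 151 ± 11.8 RPKM (SD, n = 2).

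Several subunits of complex IV exist as isoforms known from particular tissues, and the tissue-restricted forms were set against the widely expressed ones per length. Cox6b2 stood at 29.8% and 30.3% of the level of its widely expressed partner Cox6b1 in the WT libraries and at 50.6% and 50.7% in the G3 Terc-/- libraries. Cox6b1 itself had 89.2 and 78.6 CPM in WT and 80.8 and 79.6 CPM in G3 Terc-/- ESCs, with overlapping groups (log2 fold change -0.06, adjusted p = 0.435, edgeR), so the shift in the ratio came with the level of Cox6b2. Ndufa4l2, known as a hypoxia-induced relative of Ndufa4, was low and overlapped between genotypes, at 4.17 and 3.74 CPM in WT and 4.60 and 4.11 CPM in G3 Terc-/- ESCs (adjusted p = 0.576, edgeR). Its level per length was 1.59% and 1.40% of Ndufa4 in WT and 3.46% and 2.77% in G3 Terc-/- ESCs.

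Cox7a1, the form of heart and skeletal muscle, stood at 10.3% and 12.2% of Cox7a2 in WT and at 12.7% and 14.5% in G3 Terc-/- ESCs, and neither gene was called (adjusted p = 0.194 and 0.875, edgeR). Cox7a2l, by its symbol a relative of Cox7a2, was at a level per length close to that of Cox7a2 and was not called (adjusted p = 0.288, edgeR). Cox4i2, the lung isoform, was at 0.186% and 0.233% of Cox4i1 in WT and at 0.254% and 0.230% in G3 Terc-/- ESCs. The remaining tissue isoforms did not reach the count of the rule. In the order WT replicates 1 and 2, then G3 Terc-/- replicates 1 and 2, the raw counts were 0, 2, 2 and 0 for Cox6a2, 1, 0, 0 and 0 for Cox8b, 0, 4, 1 and 9 for Cox8c, and 5, 4, 8 and 6 for Cox7b2. At this depth no difference was detectable in these genes. Their counterparts Cox8a and Cox7b were at 365 ± 22.7 and 132 ± 2.39 RPKM (SD, n = 2) in WT ESCs and were not called (adjusted p = 0.242 and 0.753, edgeR).

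**Figure D4:**
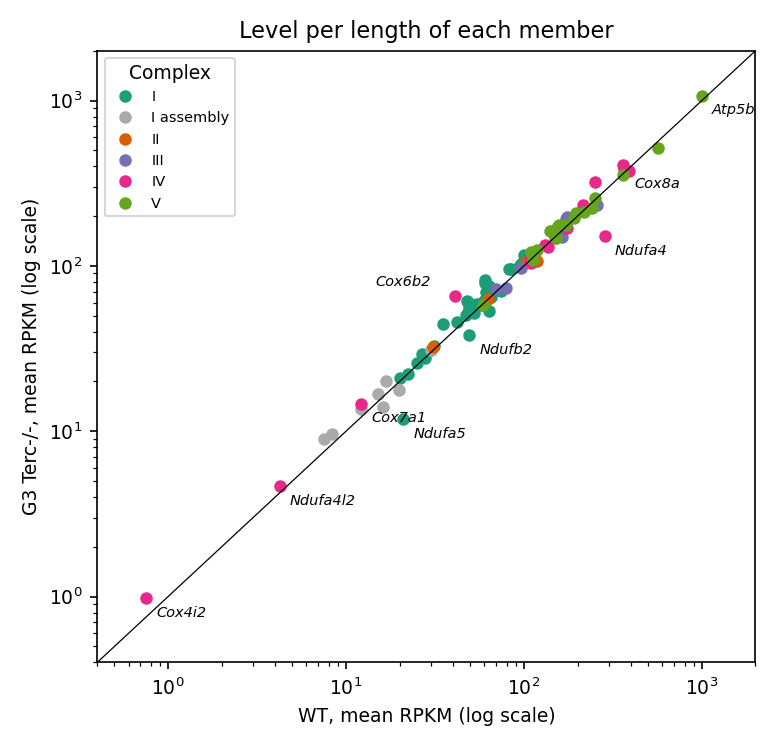
Mean level per length (RPKM, log scales) of each of the 89 members in WT ESCs (horizontal axis) and in G3 Terc-/- ESCs (vertical axis), coloured by complex, with a line at equal levels. Most members lie along the line, Ndufa4, Ndufa5 and Ndufb2 lie below it and Cox6b2 lies above it.

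Promoters of nuclear oxidative phosphorylation genes are known for sites of NRF1, of ETS-family factors such as GABP (NRF2) and of YY1. RefSeq promoter windows (GRCm38.p6, 250 bases before to 50 after a start) were found for 74 of the 89 members and searched on both strands. The letters CGCATGCG of NRF1, a palindrome, were in 11 of 74 members (14.9%), in 4.01% of the genes tested with a window and in 1.87% of all 32851 windows. The letters CCGGAAG of ETS factors were in 19 members (25.7%), in 18.5% of the genes tested and in 8.86% of all windows. The letters AAGATGGC of YY1, which contain a start codon and so can also mark a coding start, were in 11 members (14.9%), in 4.87% of the genes tested and in 2.75% of all windows. The ETS letters end in the 3 bases with which the YY1 letters begin, so that these motifs can overlap, which occurred in no member and in 1 of all windows. A match is a description of letters and not of a bound site.

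Of the other motifs searched, GGGCGG, bound by SP1, was in 45.9% of members and 67.8% of genes tested, and CCAAT, bound by NFY, in 44.6% and 43.0%. TCAAGGTC, bound by estrogen-related receptors, was in 4 members (5.41%) and in 0.941% of genes tested. Of the 11 members with the NRF1 letters 7 were higher and none was lower in G3 Terc-/- ESCs, with a median of 0.17 on the log2 scale. The 63 without these letters had 12 higher and 5 lower, with a median of 0.04. The 7 higher calls among members with the NRF1 letters fell to 2 without WT replicate 2, to 4 without WT replicate 1 and to 3 with DESeq2, and of the 7 genes Ndufa8 alone was called in every fit. For the ETS letters 5 of 19 members with them and 14 of 55 without were higher, with medians of 0.08 and 0.05, and for the YY1 letters 4 of 11 with and 15 of 63 without were higher, with medians of 0.15 and 0.04. Of the 34 members with any of the 3 motifs 12 were higher and 1 was lower, and of the 40 without 7 were higher and 4 lower. The difference between these groups was not tested. Of all genes tested 21.7% were higher and 21.8% lower. Calls among the other tested genes that hold these letters are not given here, so the counts cannot be set against them.

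Windows from 200 bases before to 30 after the start are shown for the 3 members that fell on chromosome 6, in which none of the 3 motifs was found. Also shown are 4 members picked because they were higher and hold motif letters, which are set in capitals. In Ndufc1 these are the YY1 letters, in Ndufb7 the ETS letters, in Cox6a1 the NRF1 letters and then the ETS letters in reverse, and in Atp5j the NRF1, YY1 and ETS letters in that order. Ndufa5 and Atp5j have 2 starts each, of which 1 is shown. The start not shown holds none of the 3 motifs in a stretch of the same length, for Ndufa5 and for Atp5j alike. The calls of Cox6a1 and Atp5j were lost in some fits. Among other members higher in every fit, Ndufa8 holds the NRF1 letters and Ndufa9 the YY1 letters in the searched windows. Ndufb3, Cox5a and Cox6b2 hold none of the 3 motifs there, and Sdhd, which was lower, holds the ETS letters. Atp5j shares its start region with Gabpa, the gene of the DNA-binding subunit of GABP on the opposite strand, which had a log2 fold change of 0.03 (adjusted p = 0.640, edgeR).
Ndufa4 chr6:11907421-11907650 (- strand): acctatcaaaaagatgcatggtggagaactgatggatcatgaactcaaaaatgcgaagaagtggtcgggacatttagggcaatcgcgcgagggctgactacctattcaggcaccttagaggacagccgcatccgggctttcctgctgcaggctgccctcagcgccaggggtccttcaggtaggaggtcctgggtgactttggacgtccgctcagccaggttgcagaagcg
Ndufa5 chr6:24527661-24527890 (- strand): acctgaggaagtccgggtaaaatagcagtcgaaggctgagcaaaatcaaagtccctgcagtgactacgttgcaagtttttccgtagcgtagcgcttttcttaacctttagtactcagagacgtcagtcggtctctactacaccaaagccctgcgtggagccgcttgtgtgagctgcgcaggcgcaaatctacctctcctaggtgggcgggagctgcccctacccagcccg
Ndufb2 chr6:39592365-39592594 (+ strand): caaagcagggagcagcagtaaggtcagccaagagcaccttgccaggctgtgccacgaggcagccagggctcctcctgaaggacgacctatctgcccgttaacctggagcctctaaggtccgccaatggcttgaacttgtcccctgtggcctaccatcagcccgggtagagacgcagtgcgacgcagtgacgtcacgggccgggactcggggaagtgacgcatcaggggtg
Ndufc1 chr3:51408926-51409155 (- strand): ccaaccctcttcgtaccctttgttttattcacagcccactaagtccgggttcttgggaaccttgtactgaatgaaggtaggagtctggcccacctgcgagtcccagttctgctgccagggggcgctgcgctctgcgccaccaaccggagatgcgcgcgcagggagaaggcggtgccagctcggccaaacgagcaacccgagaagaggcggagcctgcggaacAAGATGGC
Ndufb7 chr8:83566558-83566787 (+ strand): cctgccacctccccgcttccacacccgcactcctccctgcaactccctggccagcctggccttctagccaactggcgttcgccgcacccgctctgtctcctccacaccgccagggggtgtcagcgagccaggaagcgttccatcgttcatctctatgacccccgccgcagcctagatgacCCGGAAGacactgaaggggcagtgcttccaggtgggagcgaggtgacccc
Cox6a1 chr5:115348929-115349158 (- strand): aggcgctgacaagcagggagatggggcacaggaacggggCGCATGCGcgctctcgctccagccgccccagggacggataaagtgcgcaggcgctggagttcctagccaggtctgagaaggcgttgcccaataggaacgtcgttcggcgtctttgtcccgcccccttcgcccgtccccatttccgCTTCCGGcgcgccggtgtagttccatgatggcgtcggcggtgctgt
Atp5j chr16:84834947-84835176 (- strand): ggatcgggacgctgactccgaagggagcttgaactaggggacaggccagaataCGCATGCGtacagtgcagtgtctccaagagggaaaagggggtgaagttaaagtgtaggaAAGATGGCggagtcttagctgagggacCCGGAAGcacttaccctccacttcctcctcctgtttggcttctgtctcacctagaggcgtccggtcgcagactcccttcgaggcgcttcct

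Factors that build the complexes but carry other symbols were examined as a list of 41 tested genes. Of these 6 were higher and 4 lower, where 21.7% and 21.8% of all genes tested were, with a median log2 fold change of 0.03. Acad9, a complex I assembly factor, was higher, at 58.3 and 57.8 CPM in WT and 72.6 and 74.8 CPM in G3 Terc-/- ESCs (log2 fold change 0.34, adjusted p = 2.73e-05, edgeR). Ecsit, which works in the same assembly complex, was lower, at 47.6 and 43.6 CPM in WT and 34.1 and 32.0 CPM in G3 Terc-/- ESCs (log2 fold change -0.46, adjusted p = 2.28e-06, edgeR). In both genes the genotypes were apart, as for 35.5% of all genes tested in the higher direction and 34.9% in the lower.

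Among the assembly factors of complex IV, Surf1 was lower (log2 fold change -0.44, adjusted p = 9.21e-06, edgeR), and Coa6 and Cox18 were higher (log2 fold change 0.45 and 0.43, adjusted p = 0.00249 and 0.000524, edgeR). Sdhaf3, an assembly factor of complex II on chromosome 6, fell most of the list, from 5.17 and 6.09 CPM in WT to 2.48 and 3.34 CPM in G3 Terc-/- ESCs (log2 fold change -0.97, SE 0.20, adjusted p = 0.000119, edgeR). Fmc1, an assembly factor of complex V on the same chromosome, was higher at 4.44 and 3.79 CPM in WT and 5.95 and 5.70 CPM in G3 Terc-/- ESCs (log2 fold change 0.50, adjusted p = 0.0204, edgeR). Atpif1, the inhibitor of complex V, had a log2 fold change of -0.01 and was not called (adjusted p = 0.871, edgeR).

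The mobile carriers between the complexes were also measured. Cycs, which encodes somatic cytochrome c and lies on chromosome 6, fell from 107 and 105 CPM in the WT libraries to 58.3 and 61.7 CPM in the G3 Terc-/- libraries, from 2329 and 2339 and 1292 and 1125 counts. The genotypes were far apart and the replicates close (log2 fold change -0.82, SE 0.06, adjusted p = 8.55e-15, edgeR). Of the 16 genes listed for cytochrome c and coenzyme Q, 6 were higher and Cycs alone was lower, where 21.7% and 21.8% of all genes tested were. The 6 were genes of coenzyme Q synthesis, Pdss1 and Pdss2, which make its side chain, and Coq3, Coq4, Coq6 and Coq7. Coq4 rose most, from 13.8 and 14.5 CPM to 19.8 and 17.6 CPM (log2 fold change 0.41, adjusted p = 0.00124, edgeR). The 13 subunits encoded in mitochondrial DNA were not analysed here.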

How the data were processed

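The authors trimmed reads with Trim Galore, aligned them to mm10 with STAR and deposited raw read counts per gene, with featureCounts among the tools of the submitters' processing notes. Their versions, the annotation and the strand setting are not given in the sources used here. A second deposited table, of counts per transposable element copy, was not used. NCBI gene identifiers were matched to RefSeq symbols and positions (24061 of 24116). The raw counts were fitted here with edgeR 4.0.16 in R 4.3.3 (filterByExpr, TMM scaling, genotype as sole term, quasi-likelihood test, Benjamini-Hochberg adjustment over 14896 genes). CPM were scaled by TMM and RPKM divided them by the median length of the principal GENCODE vM21 transcripts.

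The alternatives were DESeq2 1.42.0, other scalings and filters, a replicate block and each library left out. The scripts were tested on simulated data. Named were all chromosome 6 members, up to 2 called members with the widest change in each direction per complex, the highest level per complex, isoform groups, Sdh genes and extremes of each list. Cox5b, Ndufa8, Ndufb3, Ndufb10, Ndufv2, Braf and further list genes were added after their values were seen. Members and lists were chosen with earlier results of these data known, so no p-value over a list was computed. RefSeq holds 18 pseudogenes of these families that the count table does not list.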

Additional observations from a re-analysis of the deposited data

How the results depend on the processing

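DESeq2 called 10 members higher and 5 lower in place of 22 and 7. It also called fewer of all genes tested, 29.3% against 43.5% in the main fit. Upper-quartile scaling gave 4 lower, leaving out the chromosome 6 members gave 4 lower, and the fold change cutoff of 2 with an unadjusted p under 0.05 gave 0 higher and 0 lower. Leaving out each library in turn gave 11 to 25 higher and 5 to 11 lower, and a median log2 fold change of the chromosome 6 members between -0.711 and -0.472. With a library left out, the lone library was assumed to vary like the others. Members with a mean of at least 100 counts, other size factors and scaling without chromosome 6 each left 22 higher and 7 lower. No called member changed sign in any fit. The replicate numbers were taken as names only, since same-numbered libraries deviated together with a correlation of 0.167 over 12177 genes in just 2 pairs, and a replicate block gave 27 higher and 10 lower.

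Limits: depth left the isoforms with under 10 mean counts undecided, and 33 of the 94 genes of the rule share exon bases with another annotated gene. Among them are Atp5j (397 bases with Gabpa), Cox5a (269 with Gm26631) and Ndufb6 (257 with Smim27), on opposite strands. Ndufb9 shares 201 bases with Gm49356 on the same strand. The uncertainty stated for Ndufb2 applies to these called members too. No exact permutation test of 2 libraries against 2 can fall below a two-sided p of 0.333.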

Other observations

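The citric acid cycle, which supplies NADH and succinate to complexes I and II, was measured through 14 genes. Of these 1 rose and 5 fell in the G3 Terc-/- line, where 21.7% and 21.8% of all genes tested did. Their median log2 fold change was -0.10. Suclg1, the alpha subunit shared by the succinyl-CoA ligases and a chromosome 6 gene, fell from 85.8 and 96.7 CPM in WT to 46.2 and 48.3 CPM in G3 Terc-/- ESCs (log2 fold change -0.95, SE 0.07, adjusted p = 2.07e-15, edgeR). Suclg2, the beta subunit of the GTP-forming ligase, lies on chromosome 6 as well and rose from 130.4 and 131 CPM to 151 and 154 CPM (log2 fold change 0.22, adjusted p = 0.000675, edgeR). On other chromosomes Ogdh and Idh3a, of the 2-oxoglutarate and isocitrate dehydrogenases, fell by 0.37 and 0.36 on the log2 scale (adjusted p = 3.82e-07 and 4.27e-07, edgeR), and Mdh2 and Dlst fell by 0.22 and 0.15. In all 6 genes the libraries of the genotypes were apart. The same held for 35.5% of all genes tested in the higher direction and 34.9% in the lower.

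Among 15 tested regulators of mitochondrial genes none was higher and 3 were lower, where 21.7% and 21.8% of all genes tested were. The lower calls were thus near the share over all genes. Pprc1, a coactivator of the PGC-1 family, was at 299.6 and 296 CPM in WT and 269 and 244 CPM in G3 Terc-/- ESCs (log2 fold change -0.21, adjusted p = 0.000725, edgeR). Nrf1, the factor whose motif was searched and a chromosome 6 gene, was at 63.7 and 62.2 CPM and 56.2 and 51.6 CPM (log2 fold change -0.22, adjusted p = 0.00733, edgeR). Ppargc1b, a weakly counted coactivator, had a log2 fold change of -0.48 (adjusted p = 0.0305, edgeR), and Ppargc1a had 0 counts in all 4 libraries. Over the 87 tested genes of these lists that are not members, 3 had a log2 fold change under -0.5, namely Sdhaf3, Cycs and Suclg1, and all 3 were among the 7 that lie on chromosome 6.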
